A study of Mus musculus with 2 samples.

Results

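T cells chosen by their own UMI counts, with Cxcr6 and without CD8, were examined among the non-parenchymal cells (NPCs) of 1 normal and 1 fibrotic mouse liver. A cell was taken as a member when it held at least 2 UMIs (unique molecular identifiers, each standing for 1 captured RNA molecule) of Cd3d, Cd3e and Cd3g together, at least 1 UMI of Cxcr6, none of Cd8a or Cd8b1, none of the NK receptor genes Ncr1, Klra8 and Klra4, at most 1 UMI of the B cell gene Cd79a, and under 25 UMIs per 10000 of the endothelial genes Kdr, Ptprb and Flt4. This gave 367 members of 13603 kept cells, of which 297 came from normal liver and 70 from fibrotic liver. Both mice were C57BL/6 males of 8 weeks. The fibrosis mouse was injected with CCl4, a hepatotoxin, at 15% in olive oil and 0.6 µl per g of body weight, 2 times a week for 6 weeks, and the control mouse received olive oil only. Cells were collected 48 h after the last injection by collagenase digestion, low-speed and density-gradient centrifugation, and sequenced with 10x Chromium 3′ chemistry. Each condition is 1 mouse and 1 library, so the libraries differ as 2 single mice do, no test was possible, and every interval given is a 95% interval for counting error only.

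CXCR6 is a chemokine receptor whose membrane-bound ligand CXCL16 is displayed by liver sinusoidal endothelial cells and macrophages, and lymphocytes that carry it patrol or reside in the sinusoids. In mouse liver these include invariant NKT cells, which are CD4+ or lack both co-receptors, express the transcription factor PLZF (Zbtb16), NK1.1 (Klrb1c) and the IL-2/IL-15 receptor β chain (Il2rb), and depend on T-bet (Tbx21). They also include effector and memory CD4 T cells and γδ T cells, some of which make IL-17A.

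Upstream sequences of 3 genes are shown because they carry the comparisons that follow: Cxcr6 defines the members, and Ifng (interferon γ) and Xcl1 (a chemokine for cross-presenting dendritic cells) were among the effector genes with the most different levels between the libraries. Each is the 250 bases before the RefSeq transcription start (GRCm38.p6, 5′ to 3′ on the gene's strand), at chr9:123806227-123806476 (+ strand) for Cxcr6, chr10:118440796-118441045 (+ strand) for Ifng and chr1:164935523-164935772 (- strand) for Xcl1. Capitals mark the 6-letter core of the RUNX motif, TGTGGT or ACCACA on the other strand, bound by transcription factors that T cells use.
Cxcr6: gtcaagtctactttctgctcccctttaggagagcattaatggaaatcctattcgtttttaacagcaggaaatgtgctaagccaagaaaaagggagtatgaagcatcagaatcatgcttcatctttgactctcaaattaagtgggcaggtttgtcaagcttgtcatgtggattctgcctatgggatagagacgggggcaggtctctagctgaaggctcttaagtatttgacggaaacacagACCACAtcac
Ifng: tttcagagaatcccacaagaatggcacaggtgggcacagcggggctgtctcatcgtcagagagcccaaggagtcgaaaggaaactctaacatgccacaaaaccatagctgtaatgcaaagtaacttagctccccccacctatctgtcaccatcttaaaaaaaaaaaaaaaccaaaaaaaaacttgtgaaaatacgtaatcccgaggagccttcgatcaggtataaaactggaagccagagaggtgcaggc
Xcl1: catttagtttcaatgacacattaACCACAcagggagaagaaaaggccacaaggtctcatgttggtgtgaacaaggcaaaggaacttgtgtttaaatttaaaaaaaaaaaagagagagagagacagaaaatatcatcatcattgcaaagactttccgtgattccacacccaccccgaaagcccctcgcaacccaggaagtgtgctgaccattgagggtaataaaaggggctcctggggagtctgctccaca
The Cxcr6 and Xcl1 windows held 1 match each and the Ifng window none, against 14% of 32851 RefSeq windows of this length with a match. None of the 3 windows held AGGTGT, the core of the T-box motif, or its reverse complement, which 11.8% of windows held. In the GENCODE annotation Cxcr6 (chr9:123806475-123811760, + strand) lies within the span of Fyco1 (chr9:123789500-123851899), which is on the opposite strand.

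The normal library held 8130 cells and 44062632 UMIs and the fibrosis library 6437 cells and 53288463 UMIs, of which 7471 and 6132 cells passed the filter of under 10% mitochondrial UMIs and over 200 genes. Members had a median of 4356 UMIs (1671 to 22346) in normal liver and 3651.5 (2040 to 52668) in fibrotic liver. The libraries shared 15 cell barcodes, and none of them belonged to a member. In fibrosis, 4 members of over 10000 UMIs held 32.7% of the members' UMIs, and the deepest alone held 14.2%. These 4 cells had 1 Cxcr6 UMI each. The deepest held 378 UMIs of the macrophage gene Lyz2 and 258 of Gpnmb, the next 185 of the collagen gene Col1a1, the third 178 of Cd74 and the fourth 233 of Saa3. In the normal library, 15 members of over 10000 UMIs held 15.5%. Values that compare the libraries are therefore given mostly without these cells, which leaves 282 normal and 66 fibrosis members, with counts over all members beside them where these differ. The summed level of 5 hepatocyte genes (UMIs per 10000 UMIs of the group) was 154.5 in normal and 12.9 in fibrosis members and 136.9 and 17.4 in B cells of the same libraries. The 7 Kupffer cell genes summed to 6.05 and 46.7 in members (4.87 and 24.2 without the deep cells), and the 5 stellate cell and fibroblast genes to 3.23 and 28.5 (2.27 and 6.26). The 7 genes of monocytes, macrophages and dendritic cells summed to 34.5 and 43.1 (13.9 and 16.3), and 9 endothelial genes to 9.31 and 13.8 (9.37 and 18.4). Hepatocyte gene levels per cell ran from 37.6 to 508.9 in normal and from 2.09 to 32.0 in fibrosis members and did not overlap. The part of RNA from other cells in the differences between the libraries was not tested.

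**Figure D1:**
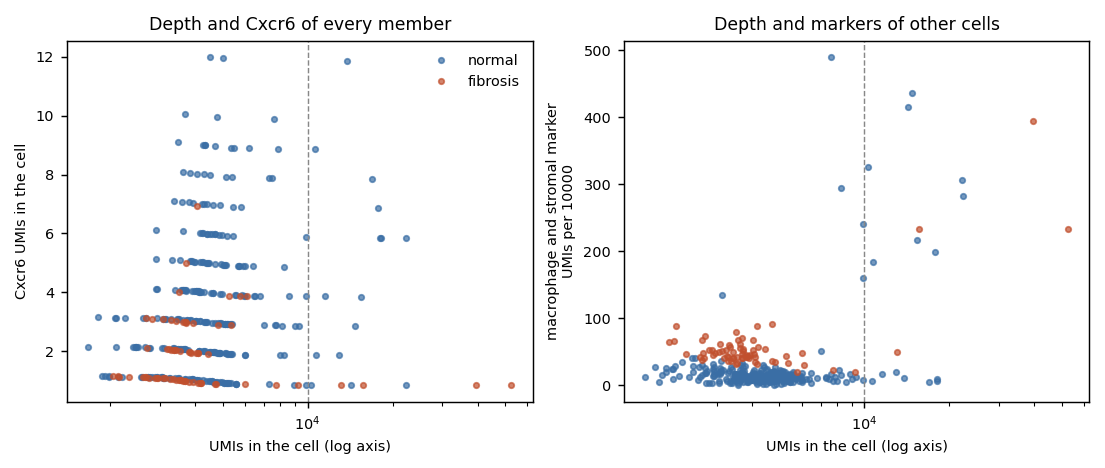
Each point is 1 member of the normal (blue) or fibrosis (red) library, by its UMIs (log axis, dashed line at 10000) and its Cxcr6 UMIs (left, points spread slightly in height) or its macrophage and stromal marker UMIs per 10000 (right). The 4 fibrosis members beyond the line hold 1 Cxcr6 UMI each, and normal members beyond it range from 1 to 12.

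Members made up 3.98% (3.54 to 4.44) of kept normal cells and 1.14% (0.891 to 1.44) of kept fibrosis cells. Of the CD3 cells without CD8, they were 64.7% (60.1 to 69.1) in normal liver and 44.0% (36.2 to 52.1) in fibrotic liver. The intervals of both shares did not overlap, but at a mitochondrial limit of 5% those of kept cells did, at 1.67% (1.14 to 2.37) and 0.704% (0.364 to 1.23). Those of CD3 cells without CD8 overlapped there too, with 31 normal and 12 fibrosis members beside 17 and 13 such cells without Cxcr6. Cells that met every other limit but held no Cxcr6 UMI numbered 162 in normal and 89 in fibrosis, and these cells without CD8 or Cxcr6 serve as a comparison group together with 185 and 102 CD8 T cells and 108 and 76 NK cells. Members held 1 to 12 Cxcr6 UMIs with a median of 3 in normal liver and 1 to 7 with a median of 1 in fibrotic liver. Exactly 1 Cxcr6 UMI was present in 64 normal and 37 fibrosis members, so the boundary ran through 37 of the 70 fibrosis members. With at least 2 Cxcr6 UMIs, 233 normal (3.12%) and 33 fibrosis members (0.538%) were left. When each cell was first thinned to 1000 UMIs, the rule found 1.38% of normal and 0.227% of fibrosis cells, again with the lower share in fibrosis. Among groups that did not have to carry it, a Cxcr6 UMI was present in 55.1% of normal and 46.1% of fibrosis CD8 T cells, in 17.6% and 15.8% of NK cells, and in 1.88% and 0.823% of B cells, which should lack it (median 2979.5 and 2395 UMIs per B cell). Just inside the limit, members with 1 Cxcr6 UMI had an Il2rb level of 5.97 in normal and 7.76 in fibrosis, and just outside it the CD3 cells with none had 4.79 and 4.64. Of the other limits, 14 normal and 12 fibrosis members had exactly 2 CD3 UMIs, and 21 and 4 cells were left out with 1 CD8 UMI. Shares of captured cells follow both the number of cells in the liver and their recovery, which cannot be told apart.

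**Figure D2:**
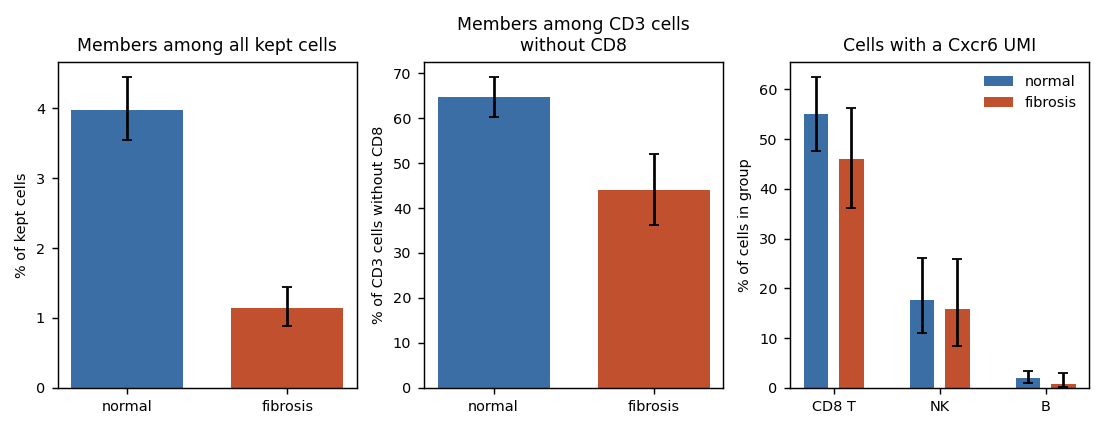
Bars show the percent of kept cells that were members (left), the percent of CD3 cells without CD8 that were members (middle) and the percent of CD8 T, NK and B cells with a Cxcr6 UMI (right), with exact 95% binomial intervals, in the normal (blue) and fibrosis (red) library. Members were 3.98% and 1.14% of kept cells, while the intervals of the libraries overlapped within CD8 T, NK and B cells.

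The label of these cells was checked against genes that the rule did not use. A UMI of Trac (the constant region of the α chain) was present in 85.9% of normal and 72.9% of fibrosis members and in 2.44% and 3.70% of B cells. Unthinned, Trac was detected without Trdc (the constant region of the δ chain) in 247 of 297 normal (83.2%, 78.4 to 87.2) and 47 of 70 fibrosis members (67.1%, 54.9 to 77.9), Trdc alone in 14 and 8, both in 8 and 4, and neither in 28 and 11. At an equal depth of 1000 UMIs per cell, Trac alone was found in 43.8% (38.0 to 49.6) and 35.7% (24.6 to 48.1) and Trdc alone in 5.39% (3.11 to 8.60) and 8.57% (3.21 to 17.7). The unthinned intervals of Trac alone did not overlap, whereas those at equal depth did, so that a difference in these shares was not detectable at 1000 UMIs. Trav11, the α variable segment of the invariant NKT cell receptor, was detected in 6 normal members (2.02%, 0.745 to 4.34) with 7 UMIs in all, and in 0 of 70 fibrosis members, which allows a share of cells with a UMI of up to 4.29% (3 counts). All 6 normal members with Trav11 also held UMIs of Trac, Il2rb and Klrb1c, 4 held Zbtb16, 2 held Cd4, 1 held Tbx21 and none held Trdc. A γ variable segment was read in 54 normal (18.2%, 13.96 to 23.1) and 5 fibrosis members (7.14%, 2.36 to 15.9), against 12.4% and 0.980% of CD8 T cells and 4.32% and 2.25% of CD3 cells without CD8 or Cxcr6, with no correction for depth. Because 3′ chemistry rarely reads variable segments, cells without a Trav11 UMI cannot be counted as other than NKT cells.

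Innate-like genes were found in a part of the members. Thinned to 1000 UMIs, Il2rb was detected in 56.9% of normal and 57.1% of fibrosis members, compared with 29.2% and 43.1% of CD8 T cells, 69.4% and 60.5% of NK cells and 2.44% and 4.12% of B cells. Klrb1c was detected in 18.5% and 12.9% of members (44.8% and 27.1% unthinned) and in 44.4% and 40.8% of NK cells. Zbtb16 was detected in 9.43% and 5.71% (27.9% and 17.1% unthinned). Cd4, the co-receptor for MHC class II, was detected in 10.4% and 15.7% of members (33.0% and 32.9% unthinned) and in 0.564% and 1.23% of B cells. Foxp3, the regulatory T cell factor, was found in 0.337% and 1.43%. Il2rb was thus detected in most members of both libraries, and the other genes in smaller shares.

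**Figure D3:**
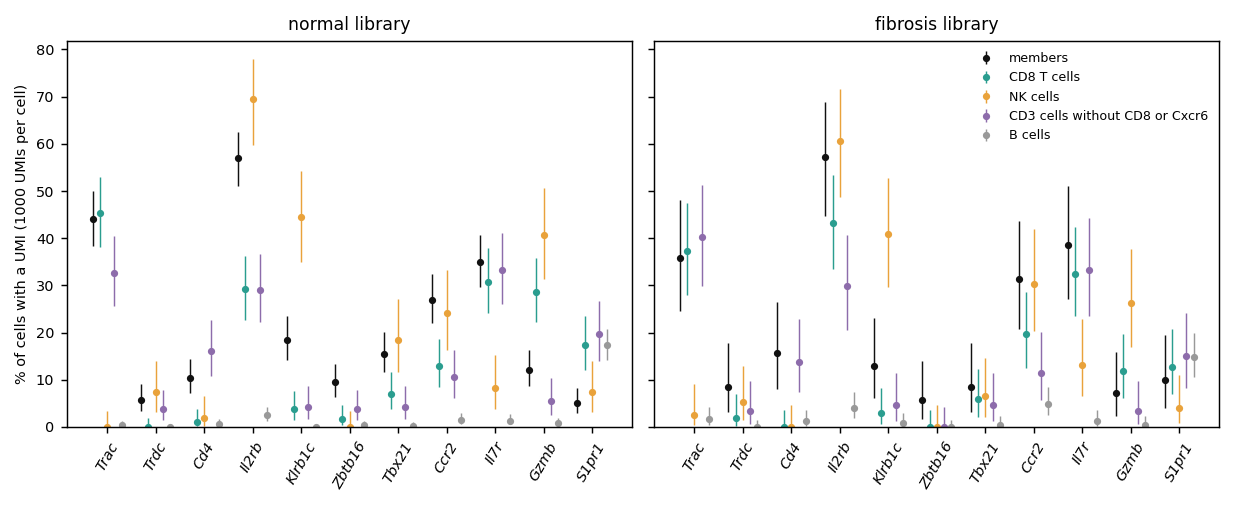
Points show the percent of cells with at least 1 UMI of each gene after every cell was thinned to 1000 UMIs, with exact 95% binomial intervals, for members and 4 comparison groups in the normal (left) and fibrosis (right) library. Il2rb was detected in 56.9% and 57.1% of members, Klrb1c in 18.5% and 12.9%, between CD8 T cells and NK cells.

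Compared with CD8 T cells of the same library, members had higher levels of Cd4, Icos, Zbtb16 and Klrb1c, while many genes of naive and of cytotoxic T cells were lower. The groups were cut by CD8 and Cxcr6, so these ratios describe the groups and carry no test. Of 4318 genes compared in the normal library, 1.85% were at least 2 times higher and 2.55% at least 2 times lower in members, and of 4997 in the fibrosis library 5.9% and 3.82%. Without cells of over 10000 UMIs these shares were 1.98% and 1.79% in normal and 4.83% and 4.26% in fibrosis. By mean UMIs per cell, which follows the depth of the cells, the fibrosis split moved from 295 genes higher and 191 lower to 607 and 90. Cd4 stood at 1.17 UMIs per 10000 in normal members and 0.156 in CD8 T cells (7.51 times, 4.43 to 13.7), and at 1.38 and 0.0934 in fibrosis (14.8 times, 5.42 to 56.2). At a mitochondrial limit of 5%, which left 12 fibrosis members and 10 CD8 T cells, these CD8 T cells held no UMI of Cd4 or Zbtb16, so that no direction could be read there. Icos, a costimulatory receptor, was 5.16 times higher (3.64 to 7.51) in normal and 2.75 times higher (1.79 to 4.29) in fibrosis. Rora, a nuclear receptor of innate and type 17 lymphocytes, was 2.41 and 2.73 times higher, the LIM-domain factor Lmo4 2.63 and 3.33 times, and the lysosomal trafficking regulator Lyst 4.28 and 2.45 times. Zbtb16 was 13.3 times higher (5.92 to 36.8) in normal and 6.56 times (1.90 to 34.9) in fibrosis, and Klrb1c 4.46 and 6.17 times. Il2rb was 2.36 times higher (2.11 to 2.64) in the normal library and 1.31 times (1.10 to 1.54) in fibrosis, where CD8 T cells had 6.35 against 4.06 in normal. Of the invariant NKT genes, 5 of 10 in normal were at least 2 times higher and 1 lower, but in fibrosis 2 of 8 were higher and 2 lower. Of the NK receptors and adaptors, 2 of 15 were higher and 3 lower in normal, and 6 of 16 were higher and 4 lower in fibrosis. The other genes with the largest excess in both libraries were Tmem64, Socs2, Ckb, Trdc and H2-Eb1, of which the MHC class II gene H2-Eb1 was at 0.999 times in fibrosis without the 3 cells that held most of it.

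Of the 10 naive and recirculating T cell genes, 8 were at least 2 times lower than in CD8 T cells in normal liver and 6 in fibrosis, and none was at least 2 times higher. Ccr7, the lymph node homing receptor, was 15.3 and 5.40 times lower. Dapl1 was 82.7 times lower (22.3 to 691.5) in normal members on 2 UMIs, and in fibrosis members it had none, so it was at least 13.5-fold lower (floor of 3 counts over the group). Of the cytotoxic effector genes, 4 of 11 in normal and 5 of 10 in fibrosis were at least 2 times lower and none was at least 2 times higher. Gzma (granzyme A) stood at 0.687 against 9.08 in normal (13.2 times lower) and at 0.594 against 1.75 in fibrosis (2.95 times lower), Gzmb at 1.80 against 6.42 and at 0.675 against 1.42, and the chemokine gene Ccl5 at 13.9 against 51.0 and at 6.59 against 15.9. In contrast, the Ifng level of members did not stand apart from that of CD8 T cells, with ratios of 1.18 (0.985 to 1.43) and 1.61 (0.842 to 3.13).

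Compared with NK cells, 4.85% of 4577 genes were at least 2 times higher and 5.31% lower in normal members, and 5.35% and 7.4% of 5123 genes in fibrosis (4.38%, 4.76%, 7.01% and 7.97% without cells of over 10000 UMIs). The balance turned by mean UMIs per cell, from 222 genes higher and 243 lower to 400 and 161 in normal and from 274 and 379 to 531 and 209 in fibrosis. Of the T cell receptor and CD3 genes, which include those of the rule, 13 of 19 in normal and 14 of 19 in fibrosis were at least 2 times higher. Outside the receptor itself, Bcl11b, a T lineage factor, was 17.02 times higher (8.90 to 37.4) in normal and 26.6 times (10.1 to 99.03) in fibrosis, Icos 9.41 and 11.1 times, the costimulatory receptor Cd28 4.07 and 6.45 times and the IL-7 receptor gene Il7r 6.70 and 3.10 times. Of the NK receptors and adaptors, 14 of 20 in normal and 13 of 19 in fibrosis were at least 2 times lower. NK cells were chosen by the NK receptor genes Ncr1, Klra8 and Klra4, which members had to lack, so this count describes the groups and carries no test. Gzma was 54.1 times lower (44.3 to 66.7) in normal members, at 0.687 against 37.2, and 41.5 times lower (27.2 to 66.6) in fibrosis, at 0.594 against 24.6. The pore-forming gene Prf1 was 14.98 and 11.9 times lower, and Eomes, a T-box factor of conventional NK cells, was 101.7 times (38.7 to 379.2) and 15.2 times (4.84 to 76.7) lower. The levels of Ifng and Tbx21 did not stand apart from those of NK cells: the ratios for Ifng were 0.910 (0.730 to 1.14) and 0.878 (0.484 to 1.59), and for Tbx21 0.817 (0.622 to 1.08) and 0.757 (0.425 to 1.34). Xcl1 was 2.61 times lower (2.20 to 3.10) than in NK cells in normal and 6.94 times lower (3.64 to 14.6) in fibrosis.

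Members were also compared with CD3 cells that lacked both CD8 and Cxcr6, and here they had higher Id2, Il2rb and Ifng and lower levels of naive T cell genes in both libraries. In normal, 2.54% of 4450 genes were at least 2 times higher and 3.01% lower in members, and in fibrosis 3.62% and 3.38% of 4947 (2.74%, 2.31%, 5.36% and 5.75% without cells of over 10000 UMIs). By mean UMIs per cell the split went from 113 genes higher and 134 lower to 176 and 98 in normal and from 179 and 167 to 526 and 73 in fibrosis. Id2, a factor of effector and innate lymphocytes, was 2.33 times higher (2.11 to 2.57) in normal and 2.02 times higher (1.73 to 2.37) in fibrosis. Lyst was 2.66 and 3.21 times higher, Il2rb 2.001 and 1.79 times, Nkg7, a cytotoxic granule gene, 2.94 and 1.88 times, and Cd226, an activating receptor, 2.75 and 1.99 times. Ifng was 3.55 times higher (2.60 to 4.97) in normal members, at 2.24 against 0.632, and 2.77 times higher (1.25 to 6.73) in fibrosis, at 0.675 against 0.244. Of 9 naive and recirculating genes, 6 in normal and 7 in fibrosis were at least 2 times lower, among them Ccr7 (15.3 and 5.27 times), Tcf7 (3.53 and 2.83 times) and Lef1 (2.58 and 4.83 times), factors of naive and memory T cells. Of 8 regulatory T cell genes, 4 were at least 2 times lower in normal and 1 in fibrosis. Foxp3 was 21.2 times lower (8.53 to 68.2) in normal members and 2.46 times (1.09 to 6.06) in fibrosis, Ctla4 5.58 and 1.75 times, and Ikzf2 (Helios) 3.05 and 1.40 times. Cytotoxic effector genes were at least 2 times higher for 6 of 9 in normal and none lower, and in fibrosis 1 of 8 was higher and 1 lower (Serpinb6b and Gzma). Gzmb was 2.37 times higher (1.77 to 3.24) in normal but at 0.607 times (0.354 to 1.02) in fibrosis, and at a mitochondrial limit of 5% it was at 0.967 times in normal.

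**Figure D4:**
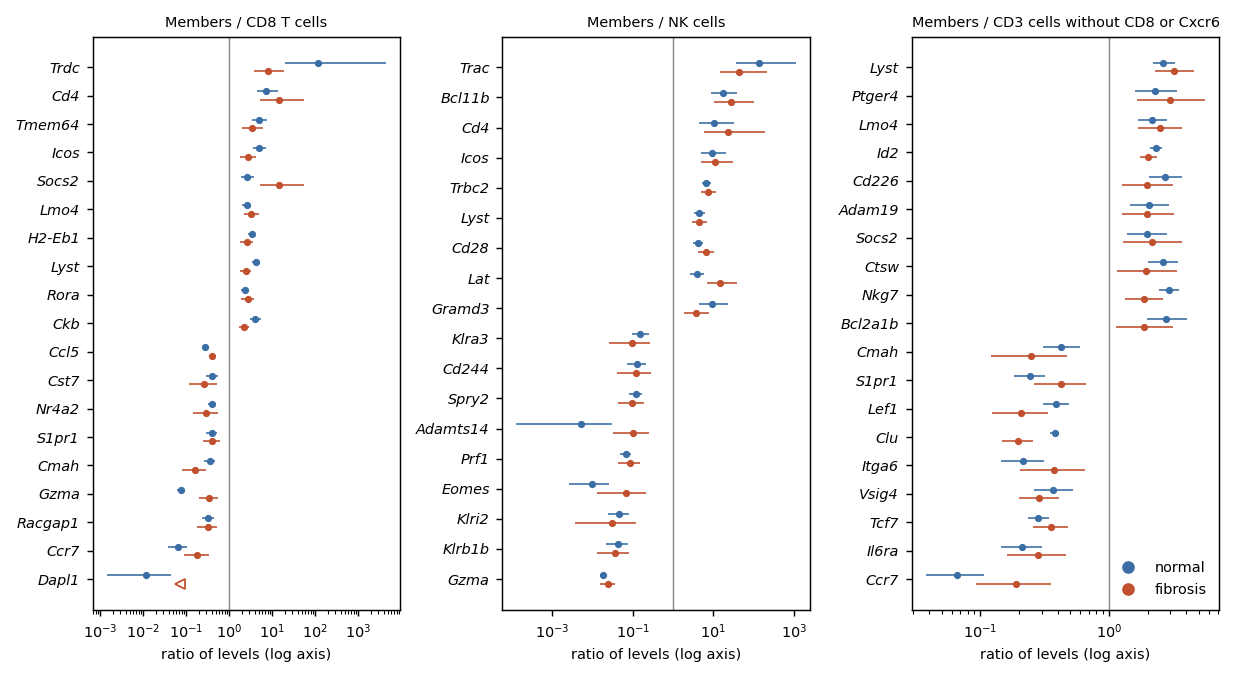
Points show the ratio of the level in members to that in CD8 T cells (left), NK cells (middle) and CD3 cells without CD8 or Cxcr6 (right), on a log axis with 95% counting intervals, for up to 10 highest and 10 lowest genes that lay on the same side of 1 in the normal (blue) and fibrosis (red) library. Lyst was above 1 in all 3 panels, and the open triangle is the bound for Dapl1 in fibrosis, which had no UMI in members.

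Between the libraries, 13.4% of 4957 genes were at least 2 times higher and 7.08% at least 2 times lower in fibrosis members, and 13.1% and 8.79% of 4971 genes without the cells of over 10000 UMIs. The median log2 ratio of all genes compared was 0.16, and 0.23 without these cells, so ratios are to be read against that shift. With the median set to 0, the split of 666 genes higher and 351 lower over all members became 530 and 436. A gene entered the counts with a level of at least 0.5 in either library, so a gene near 0 in one of them entered only through the other. The genes with the largest ratios that departed from those of B cells were not T cell genes. Those most strongly lower in fibrosis (Apoa5, Fabp1, Hpd, Fgb, Apoh, Otc, Wfdc21, Apoc1 and Tdo2 among them) are hepatocyte genes; Fabp1, for example, was at 19.9 in normal and 0.594 in fibrosis members and at 16.9 and 1.35 in B cells. The 10 most strongly higher (Saa3, Mmp12, Gpnmb, C3ar1, Cpe, Col6a3, Pf4, Col1a2, Col1a1 and Cd300a) are macrophage and stromal genes, and Gpnmb was at 8.51 in all fibrosis members and at 1.85 without the 4 deep cells, against 5.69 in all B cells of that library. A further rule, chosen after these values were seen, therefore named genes whose level in members was at least 2 times that in B cells, and the paragraphs below give levels without cells of over 10000 UMIs unless stated.

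Xcl1, Ifng, Cd160 and Cd40lg were among the genes lower in fibrosis members. Xcl1 stood at 2.39 in normal and 0.401 in fibrosis members, 5.96 times lower (3.20 to 12.6), and over all members at 2.15 and 0.297. Ifng stood at 2.53 and 0.842, 3.00 times lower (1.93 to 4.92), and over all members at 2.24 and 0.675. Neither interval included 1, and both genes were also lower in fibrosis in CD8 T cells, with fibrosis over normal ratios of 0.191 for Xcl1 and 0.235 for Ifng, and in NK cells, with 0.444 and 0.320. Gzmb was 2.13 times lower (1.97 and 0.923), Cd160, a receptor of cytotoxic lymphocytes, 2.86 times lower (1.49 and 0.521) and the surface glycoprotein gene Cd52 2.60 times lower (21.7 and 8.34). Ccl5 was at 15.1 and 9.47, 1.59 times lower (1.39 to 1.83), compared with a ratio of 0.311 in CD8 T cells. Cd40lg, the ligand through which helper T cells act on B cells and macrophages, was at 0.917 and 0.201 (4.57 times lower). Cd4, also a gene of helper T cells, was not 2 times apart. Tnfsf14 was at 0.917 and 0.241, and Il4 at 0.622 and 0.120 on 78 and 3 UMIs. Of the 14 cytokine and chemokine genes compared, 5 were at least 2 times lower (Ifng, Il4, Xcl1, Tnfsf14 and Cd40lg) and 5 at least 2 times higher (Il17a, Il10, Il21, Ccl3 and Ccl4), and over all members 6 of 12 were lower and 3 higher. Il4, Xcl1, Tnfsf14 and Cd40lg were under 0.5 in fibrosis and were compared only through their normal level. Il17a and Ccl3, on 34 and 56 UMIs over all normal members, were compared only through their fibrosis level. These counts are therefore no support for a change of the list. Of all genes compared, 8.79% were lower and 13.1% higher without the deep cells. Of 9 cytotoxic effector genes, Gzmb alone was at least 2 times lower and none higher, a share near that of all genes, and over all members 3 were lower (Gzmb, Nkg7 and Ctsw). Ccl4 was at 0.973 and 7.26, but 74.8% of its UMIs in all fibrosis members were in 1 cell and the ratio over all members was 1.64 without the 3 cells that held most of it.

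Some heat shock and interferon response genes were also lower in fibrosis members, where 8.79% of all genes were at least 2 times lower and 13.1% higher. Hspa1a, an inducible heat shock protein, was at 8.04 in normal and 0.441 in fibrosis members, 18.2 times lower (10.1 to 36.6). It was also lower in fibrosis in CD8 T cells, NK cells and B cells, at ratios of 0.0548, 0.0748 and 0.199. Of 9 heat shock genes, 3 were at least 2 times lower (Hspa1a, Hspa1b and Dnajb1), and Hspa1a and Hspa1b are near-identical, so their reads may have been split or lost. Of 13 interferon response genes, 4 were at least 2 times lower (Isg15, Ifit1, Igtp and Iigp1), and Igtp was at 1.96 and 0.722. Of 13 immediate early genes, 3 were at least 2 times higher (Dusp1, Zfp36 and Nfkbia). The part of cell handling in these levels was not tested.

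Several receptors and factors of activated and regulatory T cells were higher in fibrosis members. Of 7 regulatory T cell genes, 3 were at least 2 times higher (Ctla4, Ikzf2 and Tnfrsf4) and none 2 times lower, against 13.1% and 8.79% of all genes. Ctla4 and Tnfrsf4 were compared only through their fibrosis level. Over all members 4 of the 7 were at least 2 times higher and 2 had ratios below 1. Of 11 activation and checkpoint receptors, 6 were at least 2 times higher (Pdcd1, Ctla4, Tnfrsf4, Cd38, Entpd1 and Nt5e) and none lower. Of these 6, Cd38 alone had a level of at least 0.5 in normal members, and the other 5 were compared only through their fibrosis level, so the count is no support for a change of the list. Ctla4, an inhibitory receptor, was at 0.407 in normal and 2.77 in fibrosis members, 6.81 times higher (4.67 to 9.97), and over all members at 0.438 and 1.89. Its normal level was close to that of normal B cells (0.349), which had 0.0882 in fibrosis. Tnfrsf4 (OX40) was at 0.112 and 1.24, 11.1 times higher (5.75 to 22.7), below the 0.235 of B cells in normal, and 71.9% of its UMIs in all fibrosis members were in 3 cells. A cluster of 14 fibrosis members, described below, held 54 of the 70 Ctla4 UMIs and 27 of the 32 Tnfrsf4 UMIs of all fibrosis members. Its cells held 17 Cxcr6 UMIs in all, close to the limit of the rule. In the other fibrosis clusters Ctla4 ran from 0 to 1.57. Ikzf2 was at 1.12 and 4.17, 3.71 times higher (2.85 to 4.81), and Gata3, a factor of type 2 and tissue regulatory T cells, at 1.73 and 3.81, 2.20 times higher (1.71 to 2.81). Both were also read in a fibrosis cluster of 19 cells with raised NKT and cytotoxic markers, at 3.18 and 3.63. That cluster had no UMI of Cd4, Ctla4 or Foxp3, so Ikzf2 and Gata3 were not confined to regulatory T-like cells. In CD8 T cells the ratio of Ikzf2 was 0.429 (0.268 to 0.663) and that of Gata3 0.966 (0.612 to 1.49), and in CD3 cells without CD8 or Cxcr6 they were 1.31 (1.05 to 1.64) and 1.14 (0.790 to 1.63). Over all members the ratios were 2.56 (2.01 to 3.25) for Ikzf2 and 4.32 (3.04 to 6.15) for Ctla4, and with at least 2 Cxcr6 UMIs, deep cells included, 3.37 and 9.40. At a mitochondrial limit of 5%, which left 31 normal and 12 fibrosis members of any depth, Ikzf2 was at 10.8 times and Ctla4 at 1.35 times, below the 2-fold limit. Cd38 was 4.14 times higher in members and 3.26 times in CD8 T cells and 3.39 times in B cells, and was thus higher in each of these groups. Foxp3 itself rested on 5 UMIs in 1 normal cell and 9 UMIs in 3 fibrosis cells.

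Cell cycle genes were at least 2 times higher for 6 of 7 in fibrosis members and for 4 of 8 over all members. Top2a and Stmn1 reached a level of 0.5 in normal members, whereas Mki67, Ube2c, Birc5 and Pclaf were compared only through their fibrosis level, so this count too is no support for a change of the list. Mki67, a marker of dividing cells, was 2.10 times higher (1.23 to 3.48) on 55 normal and 23 fibrosis UMIs and 1.34 times (0.943 to 1.86) over all members, where the normal library had 144 UMIs. The replication factor gene Pclaf was 8.80 times higher, Rrm2 (a ribonucleotide reductase subunit) 8.21 times and Top2a 4.42 times, and over all members 4.65, 4.66 and 2.63 times. For Il2rb and Id2 the ratio depended on the deep cells. Il2rb was at 10.2 and 11.5, a ratio of 1.13 (0.988 to 1.28), and over all members at 9.58 and 8.29, a ratio of 0.866 (0.763 to 0.980). Id2 had a ratio of 1.001 (0.895 to 1.12), and 0.864 (0.783 to 0.952) over all members. None of 19 T cell receptor and CD3 genes was 2 times apart, 3 of which the rule itself required. Zbtb16 was 1.96 times lower (0.941 and 0.481, interval 1.08 to 3.89) and Klrb1c 1.64 times lower (2.04 and 1.24, interval 1.13 to 2.47). Cxcr6, which chose the members, stood at 7.92 and 5.09, and over all members at 7.18 and 3.54. Of the 16 homing receptor genes, 4 were at least 2 times higher (Cxcr4, Cx3cr1, Itga4 and Itgb1) and none lower, but over all members 3 were higher and 2 lower (Cxcr6 and Cxcr3). Of 6 naive genes none was 2 times apart. Of the 19 transcription factors, Gata3, Ikzf2 and Sox13 were at least 2 times higher and none lower, a share near the 13.1% of all genes, whereas over all members Ikzf2 was higher and Tbx21 lower (0.496 times), with Gata3 at 1.91 times. Of 10 invariant NKT genes, Slamf6 was higher and Xcl1 lower, both near the shares of all genes, and over all members none of 9 was higher and 3 were lower (Klrb1c, Tbx21 and Xcl1).

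**Figure D5:**
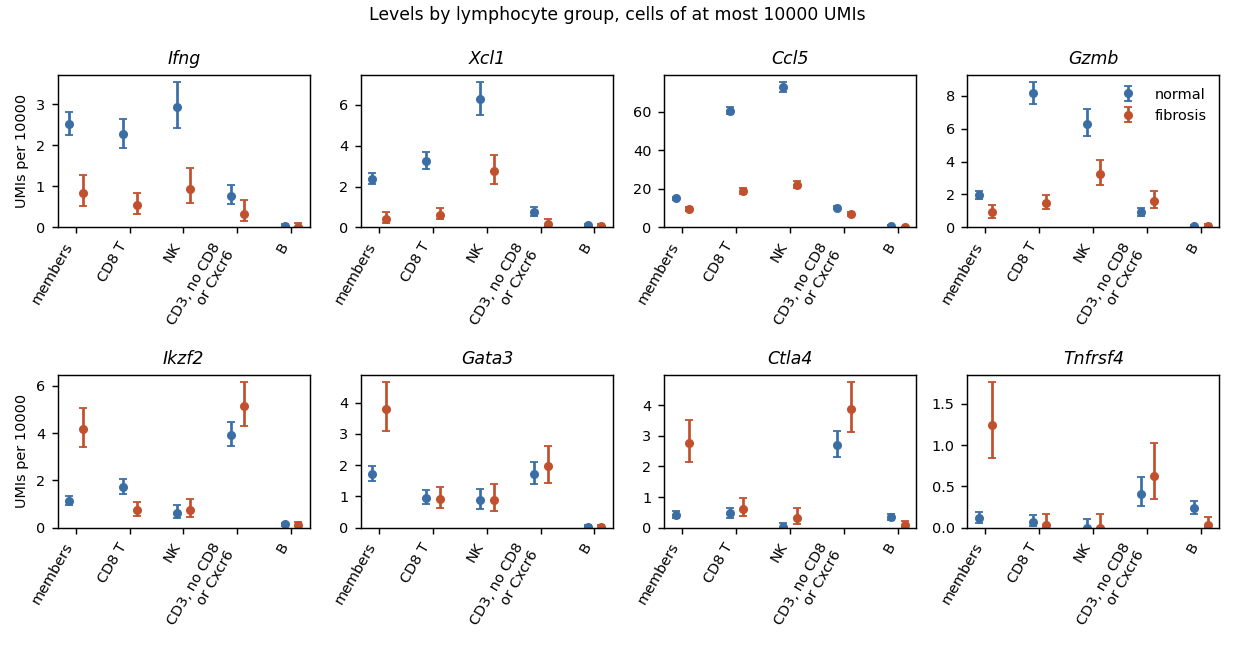
Points show the level (UMIs per 10000 UMIs of the group, exact 95% Poisson intervals) of 8 genes in members and 4 comparison groups, without cells of over 10000 UMIs, in the normal (blue) and fibrosis (red) library. Ifng and Xcl1 were lower in fibrosis in members, CD8 T cells and NK cells, whereas Ikzf2 was higher in fibrosis in members (1.12 and 4.17) and lower in CD8 T cells.

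Members were next split by receptor chain and by Cd4. Among members with Trac and no Trdc, 235 normal and 45 fibrosis cells, Ifng was at 2.69 and 0.996, Xcl1 at 2.15 and 0.387, Ikzf2 at 0.961 and 4.43, Ctla4 at 0.381 and 3.26, Gata3 at 1.73 and 4.09 and Cd40lg at 0.933 and 0.221. The differences between the libraries were thus present within this class. Members with a Cd4 UMI, 91 normal and 21 fibrosis cells, had Ctla4 at 0.768 and 5.34, Tnfrsf4 at 0.0960 and 2.78 and Ikzf2 at 0.936 and 6.23, and those without, 191 and 45 cells, had Ctla4 at 0.227 and 1.32 and Ikzf2 at 1.22 and 3.01. Both classes had higher Ctla4 and Ikzf2 in fibrosis, with the higher fibrosis levels in the Cd4 cells, where 1 cell held 19 UMIs of Ctla4. The members with Trdc and no Trac were few, 14 normal and 7 fibrosis cells. Cd163l1 (SCART1), a scavenger receptor of IL-17-producing γδ T cells, was at 7.89 and 9.45 in them, from 4 cells each with 23 of 49 normal UMIs in 1 cell, against 0.0381 and no UMI in the members with Trac and no Trdc. Ccl5 was at 20.0 and 9.90, with 18 of the 22 fibrosis UMIs in 1 cell, and at 15.6 and 9.68 in the members with Trac and no Trdc. Il17a was at 4.99 and 4.50 in these cells, from 2 cells each, and 26 of the normal UMIs were in 1 cell. Over all members, Il17a was detected in 4 cells of each library, and it had no UMI in CD8 T cells or NK cells of either library.

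Clustering the members of each library on their own gave 7 groups in normal liver and 5 in fibrotic liver, whose leading genes formed them and are given as a description. In both libraries 1 group had raised markers of the γδ T17 list, with 19 normal cells (8 of 9 markers raised) and 9 fibrosis cells (9 of 9), led by Blk, Cd163l1, Aqp3 and Kcnk1 among others. Trac was read in 13 and Trdc in 5 of the 19 normal cells, so most of that group was not shown to be γδ, and in 3 and 5 of the 9 fibrosis cells. These groups had Il7r at 19.5 and 14.4, Ccl5 at 0.457 and 0, and Il2rb at 0.914 and 4.21. A cytotoxic T-like group of 65 normal cells was led by Ccl4, Cd244, Gzma, Klre1 and Prf1, had 5 of 7 cytotoxic markers raised, Ccl5 at 30.2, Ifng at 3.12 and Il2rb at 15.3. Of its leading genes, Cd244, Gzma, Klre1, Prf1 and Spry2 had higher levels in NK cells than in members of both libraries. They therefore do not set this group apart from NK cells. A fibrosis group of 14 cells had 5 of 6 regulatory markers raised (Foxp3, Il2ra, Ctla4, Ikzf2 and Tnfrsf4), with Ctla4 at 5.83 and Ikzf2 at 6.37, but its leading genes were stromal (Bicc1, Igfbp5 and Col3a1 among them), 2 of its cells had over 10000 UMIs, and it was left unnamed. A fibrosis group of 16 cells had 4 of 6 naive T cell markers raised (among them Ccr7, Lef1 and Satb1), of which Ccr7 was among its 10 leading genes, with Il2rb at 13.4. It also had 3 of 6 NKT markers (Klrb1c, Tbx21 and Slamf6) and 2 of 5 helper T cell markers (Cd28 and Tnfsf8) raised, so its markers were mixed. Of the remaining groups, 1 of 19 normal cells was led by MHC class II and cell cycle genes and held 10 of the 15 deep normal cells, 1 of 12 normal cells was led by haemoglobin genes, and 1 of 12 fibrosis cells was led by replication genes and held 2 of the 4 deep cells. A fibrosis group of 19 cells also had 5 of 7 cytotoxic markers raised (Gzma, Gzmb, Prf1, Nkg7 and Ctsw) and 3 of 6 NKT markers, but none was among its 10 leading genes and it was left unnamed. The remaining normal groups of 63, 62 and 57 cells had no name, and the 57 normal cells had the highest Cd4 level of the normal groups, at 2.86.

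The ligand and survival signals of these cells were looked up in their surroundings. Cxcl16 was at 2.01 (1.94 to 2.08) in 2714 normal and 2.56 (2.49 to 2.63) in 2276 fibrosis endothelial-marker cells, and at 1.71 and 2.34 in 742 and 1550 macrophage-marker cells. In members it was at 0.384 and 1.49, and in B cells at 0.363 and 1.31, so the intervals of members (0.291 to 0.498 and 1.12 to 1.93) held the B cell level in each library. Cd1d1, whose product presents lipids to NKT cells, was at 0.474 (0.416 to 0.537) in normal and 0.146 (0.129 to 0.163) in fibrosis macrophage-marker cells, and at 0.201 and 0.0717 in endothelial-marker cells. Il15, a survival cytokine read through Il2rb, was at 0.450 and 0.271 in macrophage-marker cells and at 0.194 and 0.223 in endothelial-marker cells. In B cells Cd1d1 was at 0.313 and 0.145 and Il15 at 0.0676 and 0.218, so Cd1d1 stood above B cells in normal macrophage-marker cells only, and Il15 in both groups in normal but in neither beyond the B cell interval (0.139 to 0.324) in fibrosis. With 1 mouse per condition these values, like those of the members, have no replicate.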

How the data were processed

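Liver NPCs of 1 normal and 1 fibrosis mouse were profiled by scRNA-seq (10x Chromium 3′), 1 library each. The authors deposited raw counts, that is UMIs per gene and cell, aligned to mm10 with Cell Ranger 3.0.1 per the submitters' processing notes; no scaling had been applied. Groups follow the labels' status. Cells with under 10% mitochondrial UMIs and over 200 genes were kept. Members and gene lists were chosen with earlier results of these data known. Comparison groups shared the limit on endothelial genes, and all but B cells the limit on Cd79a. CD8 T cells held at least 2 UMIs of CD3 and of CD8 genes and none of Ncr1, Klra8 and Klra4. NK cells held at least 2 UMIs of Ncr1, Klra8 and Klra4 and no CD3 or CD8. B cells held at least 3 UMIs of Cd79a and no CD3.

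A level is the group's UMIs of a gene per 10000 UMIs. Genes with a level of at least 0.5 in either group were compared, and called when at least 2 times apart. Intervals (95%) are exact Poisson, binomial (Clopper-Pearson) or conditional. With 1 library per condition no p-value was made. Named genes are the 10 largest and 10 smallest ratios per comparison under limits on level and on the ratio in B cells, and list genes by level or ratio. An added rule, chosen after values were seen, took genes with a level of at least 1 in members and at least 2 times that in B cells. The study's methods say that doublets were tested for and removed with Scrublet. Run here on the deposited cells, Scrublet called 0 in both libraries, no cell was removed for it, and leaving out the 5% with the highest scores was an alternative. Members were clustered per library (1000 variable genes, 10 components, 15 neighbours, Leiden resolution 0.8). Python 3.11.15, scanpy 1.11.5, numpy 2.4.6, scipy 1.17.1, pandas 2.3.3, leidenalg 0.10.2, igraph 0.11.9 and matplotlib 3.10.9 were used, and the ratio step was tested on simulated data. Upstream sequences came from RefSeq (GRCm38.p6) and positions from GENCODE (mouse release 21). Motifs were chosen with results known. Some genes in the lists are not reported here by name. Other alternatives were the filters, limits of the rule, thinning, equal weight per cell, and leaving out the deepest cells or, chosen after seeing the data, cells of over 10000 UMIs.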

Additional observations from a re-analysis of the deposited data

Results flagged for a closer look

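A screen of 236 list genes, with no limit on level, sought ratios of fibrosis over normal in opposite directions in members and CD8 T cells. Cells of over 10000 UMIs were left out, and genes had to be at least 2 times apart in members. For 5 genes the ratio lay above 1 in members and below 1 in CD8 T cells of the same libraries, with neither counting interval including 1. The difference between the cell groups was not tested, since each condition is 1 library. Ikzf2 was 3.71 times higher in fibrosis members and at 0.429 times in CD8 T cells, on 141 and 104 UMIs in members. Ccl4 was 7.46 times higher in members and at 0.686 times in CD8 T cells, and 1 fibrosis member held 151 of the 181 UMIs there. Over all members the Ccl4 ratio was 1.64 without the 3 cells that held most of it. Itgae (the integrin αE chain) was 7.54 times higher in members, on 4 and 6 UMIs, and at 0.312 times in CD8 T cells. The Ly49 receptor genes Klra7 and Klra9 were 5.42 times higher on 13 and 14 UMIs and 10.1 times higher on 10 and 20 UMIs in members, and at 0.406 and 0.204 times in CD8 T cells. Klra genes are near-identical copies, so the counts of Klra7 and Klra9 are uncertain.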

How the results depend on the processing

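Of the values for named genes between the libraries, 388 stayed within counting error of the value given and 121 moved, and none of those at least 2 times apart changed direction. Among smaller ratios, Il2rb (0.866 over all members) was at 1.13 and Gzma (0.864) at 1.73 without cells of over 10000 UMIs, both were above 1 with each cell weighted equally (1.09 and 1.17), and Cd4 (1.18) was at 0.276 at a mitochondrial limit of 5%. Against the other lymphocyte groups 1666 stayed, 327 moved and 9 that were at least 2 times apart changed direction, and of the shares and counts 129 stayed and 75 moved. No paired analysis was possible because each condition has 1 library, and no replicate could be left out for the same reason. The cause of each move was not tested, except that the limit of 5% mitochondrial UMIs left 31 normal and 12 fibrosis members and that fewer UMIs or lower limits widen ratios by their construction.

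Members among kept cells were 3.12% in normal and 0.538% in fibrosis with at least 2 Cxcr6 UMIs, 1.67% and 0.704% at a mitochondrial limit of 5%, 1.38% and 0.227% after thinning to 1000 UMIs, and 1.47% in fibrosis without cells of over 10000 UMIs. Among CD3 cells without CD8 they were 50.8% and 20.8%, 69.4% in normal with at least 3 CD3 UMIs, and 36.6% and 19.4% after thinning.

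The number of genes at least 2 times apart between the libraries was 494 at a level of at least 1, 3623 with no limit on level, 1902 at a mitochondrial limit of 5% and 1815 after thinning. Against CD8 T cells (normal and fibrosis) it was 79 and 195, 1928 and 2347, 1040 and 2423, and 542 and 1450. Against NK cells it was 214 and 275, 2691 and 2538, 1249 and 1911, and 1055 and 1849. Against CD3 cells without CD8 or Cxcr6 it was 118 and 104, 2397 and 2176, 1396 and 2151, and 702 and 1641. With at least 2 Cxcr6 UMIs the fibrosis counts were 762 against CD8 T cells, 1144 against NK cells and 873 against the CD3 cells. The last was also 599 by mean UMIs per cell, 571 without the 3 deepest cells of each group and 572 without cells of over 10000 UMIs.

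Unthinned and at 2000 UMIs per cell, Trac alone was found in 83.2% and 67.4% of normal and 67.1% and 54.3% of fibrosis members, both chains in 2.69% and 2.06% of normal and 5.71% and 5.71% of fibrosis members, and neither in 9.43% and 25.8% of normal and 15.7% and 31.4% of fibrosis members. In normal members Cd4 was found in 33.0% and 18.9%, Zbtb16 in 27.9% and 14.8%, Klrb1c in 44.8% and 29.9% and Gzmb in 28.6% and 18.2%. In fibrosis members the unthinned shares were 32.9% for Cd4, 17.1% for Zbtb16, 27.1% for Klrb1c and 17.1% for Gzmb. Foxp3 was in 0 normal and 0 fibrosis members with at least 2 Cxcr6 UMIs, and in 0 normal members without the 5% with the highest doublet scores. At a Leiden resolution of 0.4 the members formed 4 normal and 3 fibrosis groups.

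Ratios that changed direction were, at a mitochondrial limit of 5%, Cmah at 1.42 against normal CD8 T cells, Tmem64 at 0.598 against fibrosis CD8 T cells, Gata3 at 0.715 and Ikzf2 at 0.160 against normal NK cells, and Adam19 at 0.835 and Gzmb at 0.967 against normal CD3 cells without CD8 or Cxcr6. Where 1 group held no UMI, the floor of 3 counts could leave the direction unread: so for Il17a against the 3 normal groups after thinning, for Cd4 and Zbtb16 against fibrosis CD8 T cells and Zbtb16 against fibrosis CD3 cells without CD8 or Cxcr6 at a mitochondrial limit of 5%, and for Foxp3 and Tnfrsf4 under some settings. H2-Eb1 against fibrosis CD8 T cells was at 0.729 with at least 2 Cxcr6 UMIs and at 0.999 without the 3 cells that held most of it, and Clu against the normal CD3 cells at 1.15 with at least 3 CD3 UMIs.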
